A study of Ginkgo biloba with 2 samples.

Results

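Flavonol synthase (FLS) and flavanone 3-hydroxylase (F3H) were followed in *Ginkgo biloba* by the deposited annotation. A reference sequence was taken as a member where the description of its best BLAST hit contained flavonol synthase, flavanone 3, naringenin, or flavonoid 3 followed by hydroxylase, and no glucosyltransferase. The rule found 17 of 64515 reference sequences. Of these, 9 were described as flavonol synthase, 6 as flavanone 3-hydroxylase, 1 as both (Unigene32580) and 1 as naringenin,2-oxoglutarate 3-dioxygenase-like (Unigene15193). No description held flavonoid 3 followed by hydroxylase. The ovules were mature and the leaves fully expanded, both were taken from female trees in April 2012 and held at -80 °C, with 1 library per tissue. The comparison asks how mRNA levels differ between these tissues. The labels give no cultivar, tree number or pooling.

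Flavonoids are phenolic compounds that plants build from phenylalanine and malonyl-CoA. F3H adds a hydroxyl group to flavanones such as naringenin and so makes dihydroflavonols. FLS oxidises dihydroflavonols to flavonols such as kaempferol and quercetin, whose glycosides are well known from ginkgo leaves. Dihydroflavonol reductase (DFR) takes the same dihydroflavonols toward anthocyanidins and proanthocyanidins. FLS and F3H both belong to the soluble 2-oxoglutarate-dependent oxygenases, which use iron and ascorbate, and their protein sequences are related.

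The ovule library held 4581771 uniquely mapped reads and the leaf library 4245222. RPKM is reads per 1000 bases of sequence and per 1000000 uniquely mapped reads. A count of 0 allows up to 3 reads, which on 1000 bases is an RPKM of 0.655 for the ovule library and 0.707 for the leaf library. An excess given below as at least some fold sets 3 reads for the 0 and leaves out the error of the other count. The counting interval given with it reaches lower folds. Every interval below speaks of counting error alone, not of differences between trees or of PCR duplicates. The labels were checked on tissue markers. Of 31 ovule marker sequences, 22 had an RPKM of 1 or more in either library, and by the ratio of RPKM + 0.5, 12 of them were at least 2-fold toward ovule and 8 toward leaf. Their summed reads were 1964 in ovule and 167 in leaf, of which the MADS-box factor GbMADS8 had 1012 ovule reads and 1 leaf read. The 48 light-harvesting and Rubisco activase sequences had 1351 RPM (reads per 1000000) in ovule and 4585 in leaf, and of 26 past the same filter, 2 were called toward ovule and 13 toward leaf.

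Transcripts of both enzymes were more abundant in the ovule library. The 17 members together had 508 RPM in ovule and 38.4 RPM in leaf, an ovule excess of 13.2-fold (95% counting interval, 11.3 to 15.6). In whole tissues, more cells with the transcript and more transcript per cell cannot be told apart. Calls rested on the ratio of RPKM + 0.5, which had to reach 2-fold, and on an RPKM of 1 or more in either library. By this rule 13 members could be called, and 11 were higher in ovule, 1 was higher in leaf and 1 was under 2-fold. Among all 56768 sequences past the same filter, 27.3% were higher in ovule and 35.1% higher in leaf. With a counting interval that also had to exclude 1, the members called were 10 in ovule and 1 in leaf, and the shares of all sequences 17.3% and 13.6%. The median log2 ratio of ovule over leaf was 3.43 over the 13 members and -0.10 over all sequences. The other 4 members, DR074396, EX933514, EX941057 and Unigene20437, had 1 or 2 reads over both libraries.

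**Figure D1:**
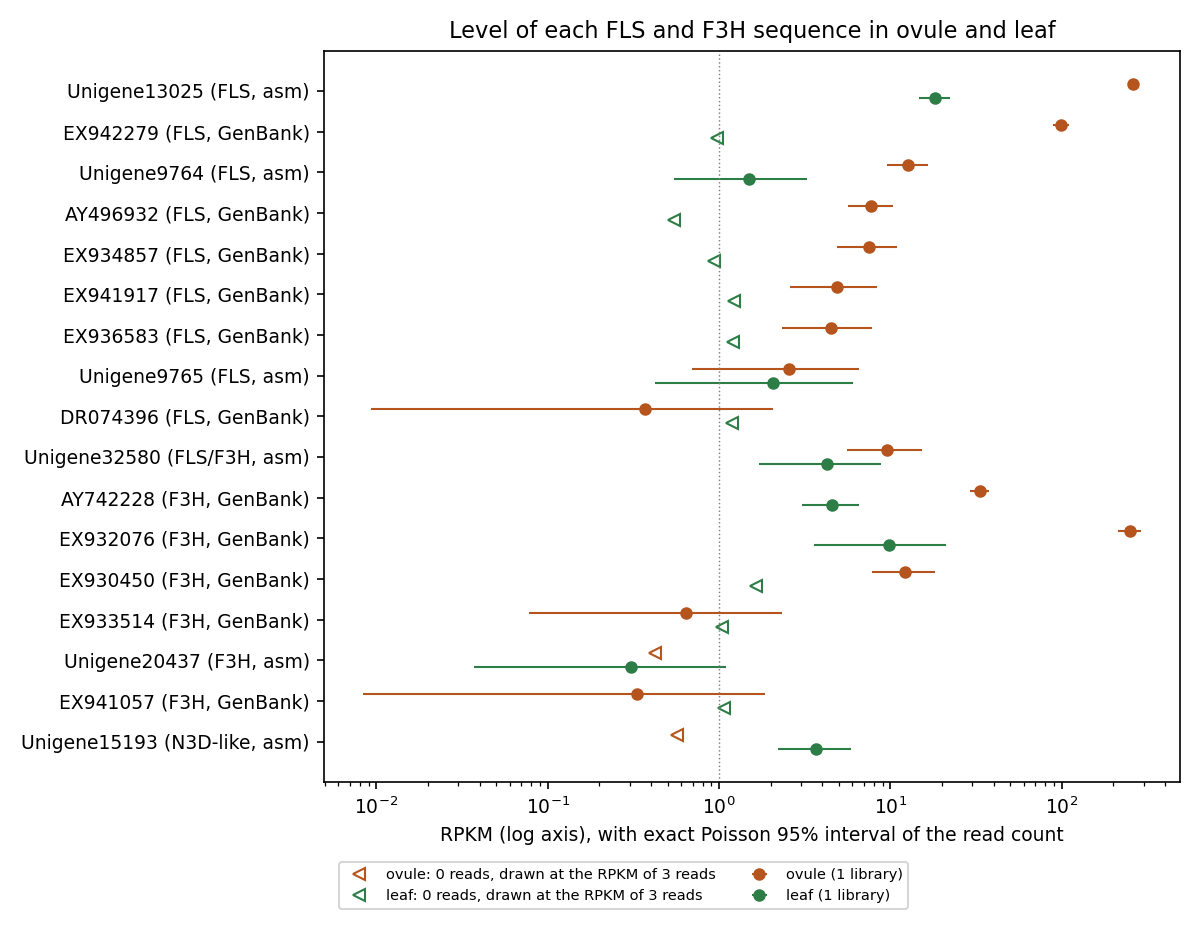
RPKM of each of the 17 sequences in ovule and leaf on a log axis, with the exact Poisson 95% interval of the read count. Open triangles mark 0 reads, drawn at the RPKM that 3 reads would give, and the dotted line marks an RPKM of 1; asm marks an assembled sequence, and N3D-like the naringenin dioxygenase-like one. Unigene13025, EX932076 and EX942279 reach the highest ovule levels, at 259, 248 and 99.0.

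Flavonol synthase reads lay mostly on 1 assembled sequence, Unigene13025. It is 1187 bases long and had 1407 ovule reads (95% interval, 1334 to 1483) and 92 leaf reads (74.2 to 113). This is 259 RPKM in ovule and 18.3 RPKM in leaf, a 14.2-fold excess in ovule (11.5 to 17.7). By RPKM it ranked 322nd in the ovule library and 7707th in the leaf library. It held 73.7% of the FLS reads in ovule (exact binomial interval, 71.7 to 75.7) and 85.2% in leaf (77.1 to 91.3). Leaf reads on it were few but above the floor of 3, and they spread over 80.62% of its bases, against 95.37% for the ovule reads.

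The other FLS sequences with more than 1 read were also higher in ovule, apart from a short one. The GenBank sequence EX942279 counted 328 reads in ovule and 0 in leaf, with an RPKM of 99.0 in ovule. With 3 reads set in leaf this is 101-fold higher in ovule, and the lower limit of the counting interval was 81.9. Unigene9764 had 55 ovule and 6 leaf reads, or 12.7 RPKM and 1.49 RPKM, an 8.49-fold excess in ovule (3.66 to 24.1). Unigene9765, of 343 bases, had 4 ovule and 3 leaf reads, a ratio of 1.24 (0.209 to 8.43), so a difference was not detectable at this depth.

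4 more GenBank sequences described as FLS had ovule reads alone. AY496932 had 46 of them and no leaf read, an excess of at least 14.2-fold. EX934857 had 26 ovule reads and 0 in leaf, an excess of at least 8.03-fold. These sequences resemble a different FLS protein from the one that Unigene13025 resembles. EX941917 had 13 and 0 reads, at least 4.02-fold higher, and EX936583 had 12 and 0, at least 3.71-fold higher. With these counts the lower limits of the counting intervals were 11.1, 6.08, 2.82 and 2.57, in the order named. DR074396 had a single ovule read.

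Sorted by the protein they resemble most, the 9 sequences described as FLS alone fell on 2 ginkgo FLS proteins in nr. The 6 that hit the first protein, among them Unigene13025, EX942279 and Unigene9764, had 1819 ovule and 101 leaf reads, a 16.7-fold excess in ovule (13.7 to 20.6). The 3 that hit the second, AY496932, EX934857 and DR074396, had 73 ovule reads and 0 in leaf, an excess of at least 22.5-fold with a lower limit of 17.9. The 0 leaf reads on the second were set at 3 for the bound. Leaf reads lay on assembled sequences alone, and all of these hit the first protein. The 6 GenBank sequences, of either protein, had 426 ovule reads and 0 in leaf. The protein and the origin of the sequence therefore cannot be told apart here. The ovule over leaf ratios of both overlap within these limits, and their difference was not tested.

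Unigene32580, described as flavonol synthase/flavanone 3-hydroxylase after a *Medicago truncatula* protein, had 17 ovule and 7 leaf reads. Its level was 9.59 RPKM in ovule and 4.26 RPKM in leaf, a 2.25-fold excess with an interval that included 1 (0.887 to 6.42). Its gene ontology terms were histone binding, zinc ion binding and DNA binding, which are not terms of an oxygenase, so its description and its terms disagree. Over all 10 FLS sequences, this one included, the libraries held 1909 ovule and 108 leaf reads, an ovule excess of 16.4-fold (13.5 to 20.1). Without Unigene13025, 502 and 16 reads remained, a 29.1-fold excess (17.7 to 51.3). Of these 502 ovule reads, 426 lay on GenBank sequences, which had 0 leaf reads. All 16 leaf reads lay on assembled sequences, so the rise to 29.1-fold cannot be told apart from the change in sequence origin.

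**Figure D2:**
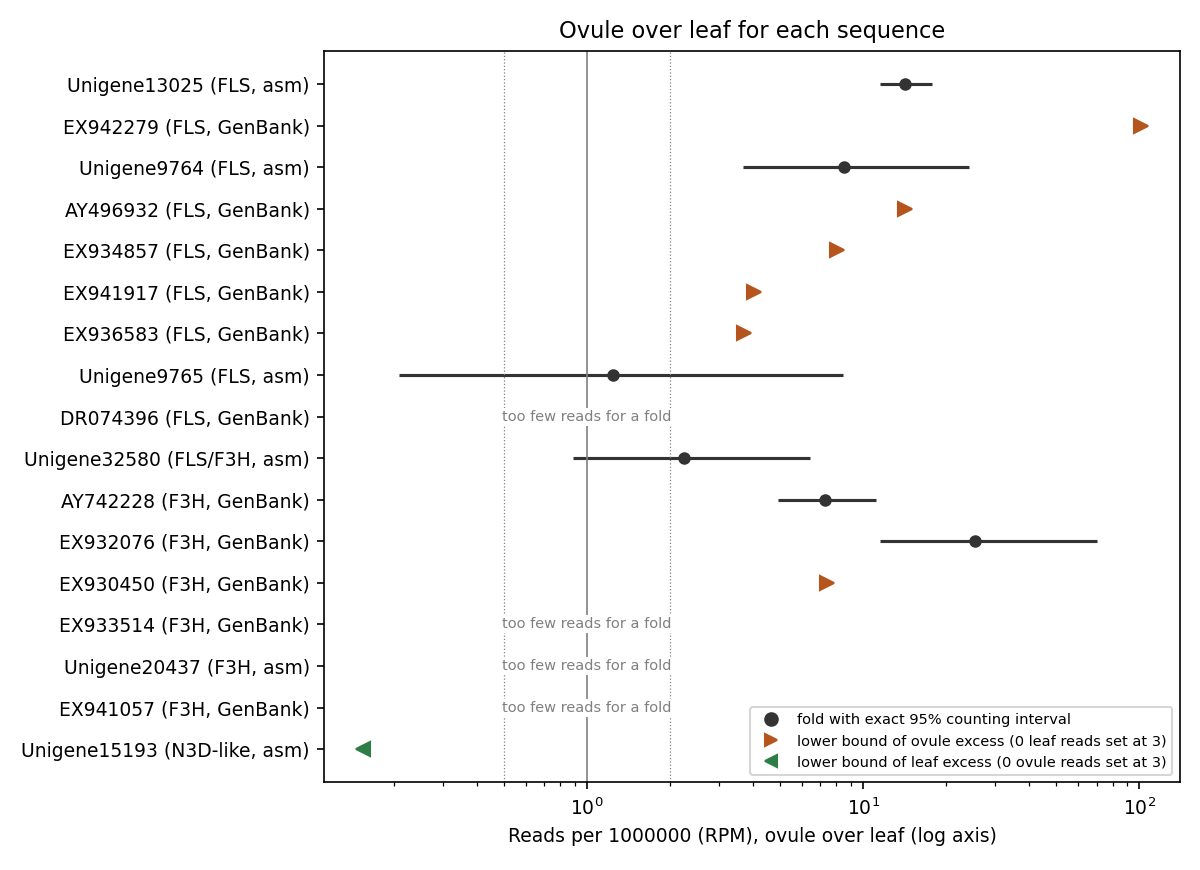
RPM in ovule over leaf for each sequence on a log axis, with the exact 95% counting interval; triangles are lower bounds where 1 library had 0 reads, and dotted lines mark 2-fold either way. 10 sequences lie right of the line at 1 with an interval or bound clear of it, with EX942279 farthest at 101 or more, while Unigene15193 alone has a bound on the leaf side.

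Flavanone 3-hydroxylase was likewise higher in ovule, on GenBank sequences. AY742228, of 1493 bases, had 227 ovule reads (198 to 259) and 29 leaf reads (19.4 to 41.6). Its level was 33.2 RPKM in ovule and 4.58 RPKM in leaf, a 7.25-fold excess in ovule (4.91 to 11.1). EX932076, a fragment of 145 bases and the shortest member, had 165 ovule and 6 leaf reads. Its level was 248 RPKM in ovule and 9.75 RPKM in leaf, a 25.5-fold excess in ovule (11.5 to 70.4). Although both resemble the same ginkgo F3H protein, their RPKM differed widely in ovule, and their counting intervals for the fold did not overlap. EX930450 had 24 ovule reads and no leaf read, an excess of at least 7.41-fold with a lower limit of 5.58. EX933514 had 2 ovule reads and EX941057 had 1, and neither had a leaf read.

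Both assembled sequences in the F3H group had leaf reads alone. Unigene20437, of 1545 bases, had 0 ovule reads and 2 leaf reads, too few for a fold, although its best hit was the ginkgo F3H protein with an E-value of 0. Unigene15193, the naringenin dioxygenase-like sequence of 1146 bases, had 0 ovule reads and 18 leaf reads (10.7 to 28.4). Its RPKM was listed at 0 in ovule and was 3.70 in leaf, at least 6.48-fold higher in leaf. The upper limit of its counting interval for ovule over leaf was 0.211. Its gene ontology process terms included systemic acquired resistance and salicylic acid biosynthesis, which no other member carried. It was named after a strawberry prediction and not after a ginkgo protein.

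Over the 7 sequences of the F3H group, there were 419 ovule and 55 leaf reads, an ovule excess of 7.06-fold (5.32 to 9.53). Without Unigene15193, the 6 sequences described as flavanone 3-hydroxylase had 419 and 37 reads, 10.5-fold higher (7.49 to 15.1). By summed RPKM the group was 16.1-fold higher in ovule, since the short EX932076 weighs more per length. The assembled F3H sequences taken alone had 0 ovule and 20 leaf reads. With 3 reads set in ovule they were 7.20-fold higher in leaf. Of these leaf reads 18 lay on Unigene15193. Unigene20437, the assembled sequence described as flavanone 3-hydroxylase, had 2, too few for a fold of its own. The upper limit of their counting interval for ovule over leaf was 0.188. The FLS excess (13.5 to 20.1) lay above that of the whole F3H group (5.32 to 9.53), but its interval overlapped that of the 6 sequences without Unigene15193. Over all origins and by summed reads, whether the intervals lie apart therefore depends on this 1 sequence. The order also depended on measure and origin. By summed RPKM the excess was 15.6-fold for FLS and 16.1-fold for F3H. On GenBank sequences alone the lower limit was 107 for FLS, and the F3H interval was 7.85 to 16.1.

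Coverage of the members was uneven in a way that bears on their levels. Reads were 49 bases long, and the share of bases that evenly placed reads would cover was computed from the read number and the length. In ovule, AY742228 would have been covered over 99.9% of its bases and was covered over 24.58%, which is 367 bases. EX932076 was covered over 87 bases, 60% of its length. Unigene9764 was covered over 17.95%, against 94.2% with even placement, and AY496932 over 11.48%, against 82.4%. Unigene13025 and EX942279 were covered well, at 95.37% and 83.40% in ovule.

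Of 8 members with at least 20 ovule reads, 5 had under 0.5 of the even coverage, namely AY742228, EX930450, Unigene9764, AY496932 and EX934857. This share was 19.3% among all 17967 such sequences in ovule, 15.5% among assembled and 64.3% among GenBank ones. The tables count uniquely mapped reads alone, so a read that matches a pair of near-identical sequences would be in neither count. RPKM divides by the full length, so the level of these 5 members is uncertain, as is the split of reads between copies. Per covered base, AY742228 had 0.619 reads in ovule and EX932076 had 1.90, so they also differed on that scale. The part of shared reads in these values was not tested.

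**Figure D3:**
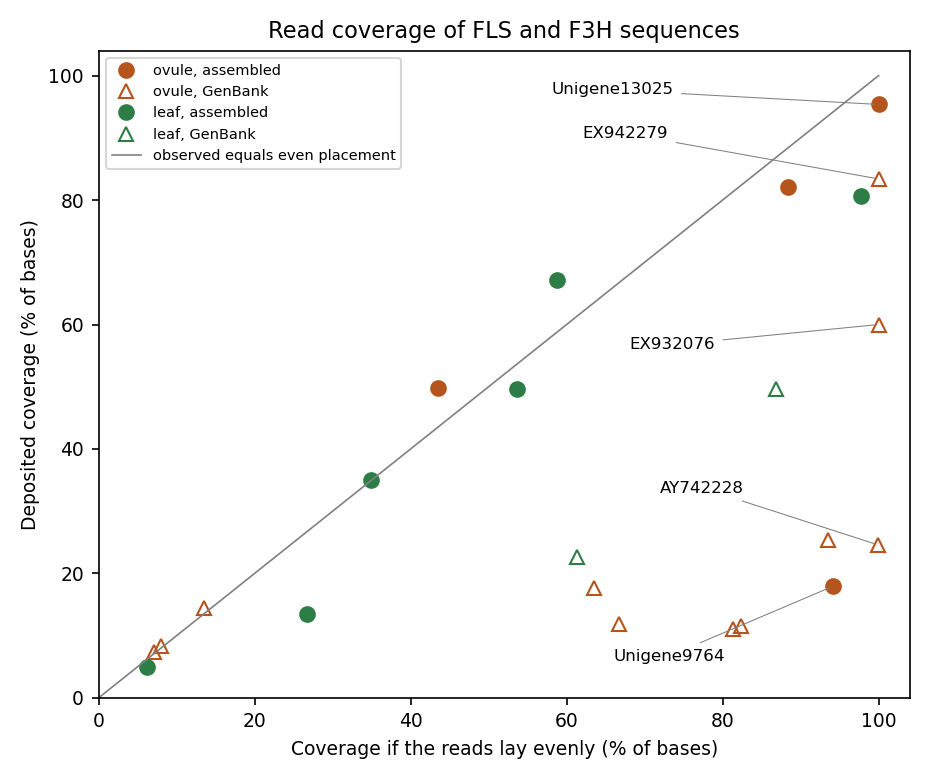
Deposited coverage of each member in percent of its bases against the coverage that evenly placed 49-base reads would give, for ovule and leaf; filled circles are assembled sequences and open triangles GenBank ones, and the line marks equality. Unigene13025 and EX942279 lie near the upper right corner, whereas AY742228 and Unigene9764 lie far below the line at 24.58% and 17.95% in ovule.

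The origin of the reference sequence moved with the result. Of the members, 6 were assembled sequences, whose identifiers carry a leaf tag, and 11 came from GenBank. All 8 GenBank members past the filter were higher in ovule, and 9 of the 11 had 0 leaf reads. Of all 3941 GenBank sequences past the filter, 55.6% were higher in ovule and 17.6% higher in leaf, against 25.2% and 36.4% of 52827 assembled ones. Among all GenBank sequences 35.5% had 0 leaf reads, and among all assembled ones 7.25%. The part of the sequence origin in the members' ratios was not tested. Within assembled sequences alone, 3 of 5 members past the filter were higher in ovule, and 1 was higher in leaf. Assembled FLS sequences held 1483 ovule and 108 leaf reads, a 12.7-fold excess in ovule. The FLS excess was thus present on assembled sequences, while the F3H excess rested on GenBank ones. The assembled sequence described as flavanone 3-hydroxylase had only 2 reads, so a direction could not be read from it.

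**Figure D4:**
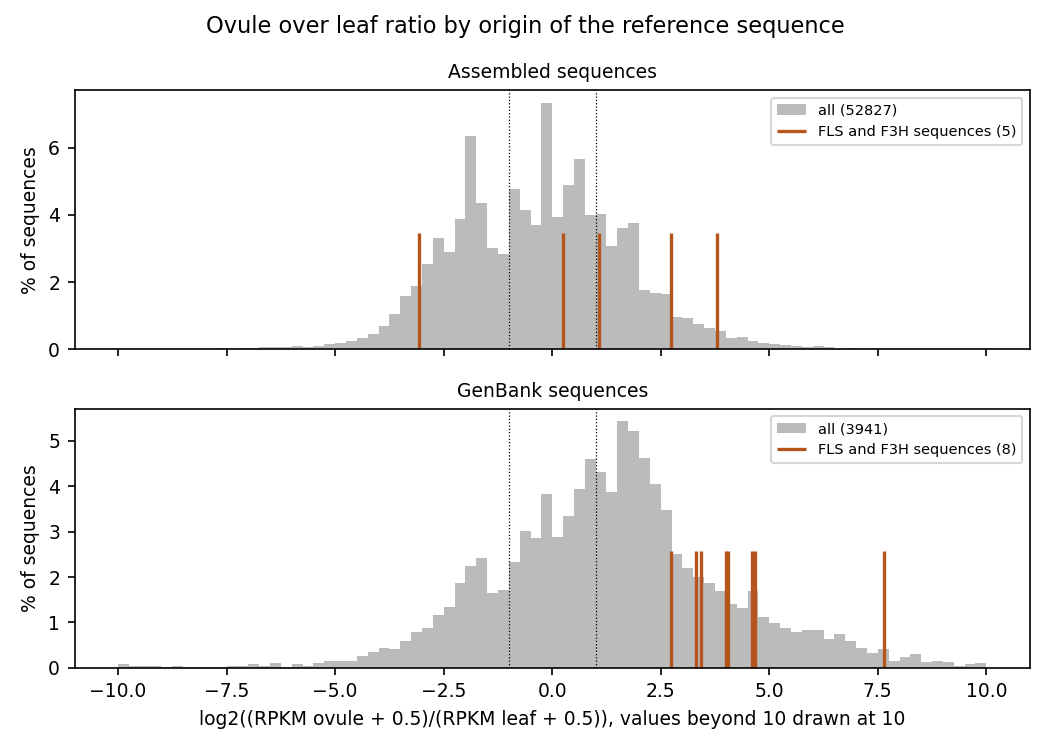
Histograms of the log2 ratio of ovule over leaf for all assembled (top) and all GenBank (bottom) sequences past the filter, in percent of sequences, with vertical lines at the FLS and F3H members and dotted lines at 2-fold either way. The 8 GenBank members all lie right of 2-fold, in a panel where 55.6% of all sequences do so, and the 5 assembled members spread on both sides.

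Gene ontology function terms were attached to 12 of the 17 members. The general 2-oxoglutarate oxygenase activity was given to 6, flavonol synthase activity to EX942279 and DR074396, and naringenin 3-dioxygenase activity to EX930450 and EX933514. The sequences ranged over 145 to 1545 bases with a median of 678, and several may be fragments of 1 gene.

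The enzymes that share the pathway were read from text lists of enzyme names. Upstream, chalcone synthase (CHS), the first enzyme of the flavonoid branch, was 9.14-fold higher in ovule by summed reads over 14 sequences (8.37 to 9.996). Of the 7 past the filter, 6 were higher in ovule and 0 in leaf. Phenylalanine ammonia-lyase (PAL), the entry enzyme, was 2.01-fold higher (1.83 to 2.20), with 10 of 17 sequences higher in ovule and 3 in leaf. Cinnamate 4-hydroxylase (C4H), the next enzyme, was 1.66-fold higher in leaf (1.46 to 1.89), with 1 of 5 sequences higher in ovule and 3 in leaf. 4-coumarate-CoA ligase (4CL), which activates the acid for CHS, was 1.32-fold higher in leaf (1.23 to 1.42), with 1 of 10 higher in ovule and 3 in leaf.

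Downstream of the dihydroflavonols, DFR had 16 ovule reads and 3 leaf reads, 4.94-fold higher in ovule (1.41 to 26.5). Anthocyanidin synthase (ANS), an oxygenase of the same family, was 42.5-fold higher (28.2 to 67.3), with 6 of 8 sequences higher in ovule and 0 in leaf. Anthocyanidin reductase (ANR), which makes flavan-3-ol units, was 15.6-fold higher (13.3 to 18.3), with 3 of 6 higher in ovule and 1 in leaf. Leucoanthocyanidin reductase (LAR), the other enzyme of that kind, was 3.01-fold higher (2.44 to 3.72), with 2 of 3 higher in ovule and 0 in leaf. The FLS excess of 16.4-fold overlapped that of ANR, lay below that of ANS over all sequences and above those of CHS, PAL and LAR. These steps were not tested against each other, and several rest on few sequences. Without its most-read sequence, the ovule excess was 5.92-fold for PAL, 5.78-fold for CHS, 14.8-fold for LAR, 5.88-fold for ANR, 2.78-fold for DFR and 31.5-fold for ANS, against 29.1-fold for FLS. For FLS, 426 of the 502 ovule reads then left lay on GenBank sequences with 0 leaf reads. On assembled sequences alone the ovule excess was 19.96-fold for ANS, 15.6-fold for ANR and 12.7-fold for FLS. It was 7.74-fold for CHS, 3.01-fold for LAR, 2.78-fold for DFR and 1.83-fold for PAL. C4H and 4CL turned to 1.51-fold and 1.16-fold higher in ovule without their most-read sequence, and stayed higher in leaf on assembled sequences alone.

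Enzymes listed as modifying flavonoids, not flavonols alone, had similar reads in both libraries. Over 11 flavonoid glucosyltransferase, methyltransferase and sulfotransferase sequences, which attach groups to flavonoids, there were 1027 ovule and 1044 leaf reads, a ratio of 0.911 (0.835 to 0.994), and 3 of 9 sequences past the filter were higher in each tissue. Other oxygenases of the wider 2-oxoglutarate-dependent superfamily, such as ACC oxidases and SRG1-like proteins, were 2.62-fold higher in leaf by summed reads (2.40 to 2.86). Of these 24 sequences, 3 were called toward ovule and 12 toward leaf, and their median log2 ratio was -1.05 (-2.07 to -0.35). Their most abundant sequence, CL3668.Contig1, a 1-aminocyclopropane-1-carboxylate oxidase homologue, had 49.3 RPKM in ovule and 165.8 RPKM in leaf.

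**Figure D5:**
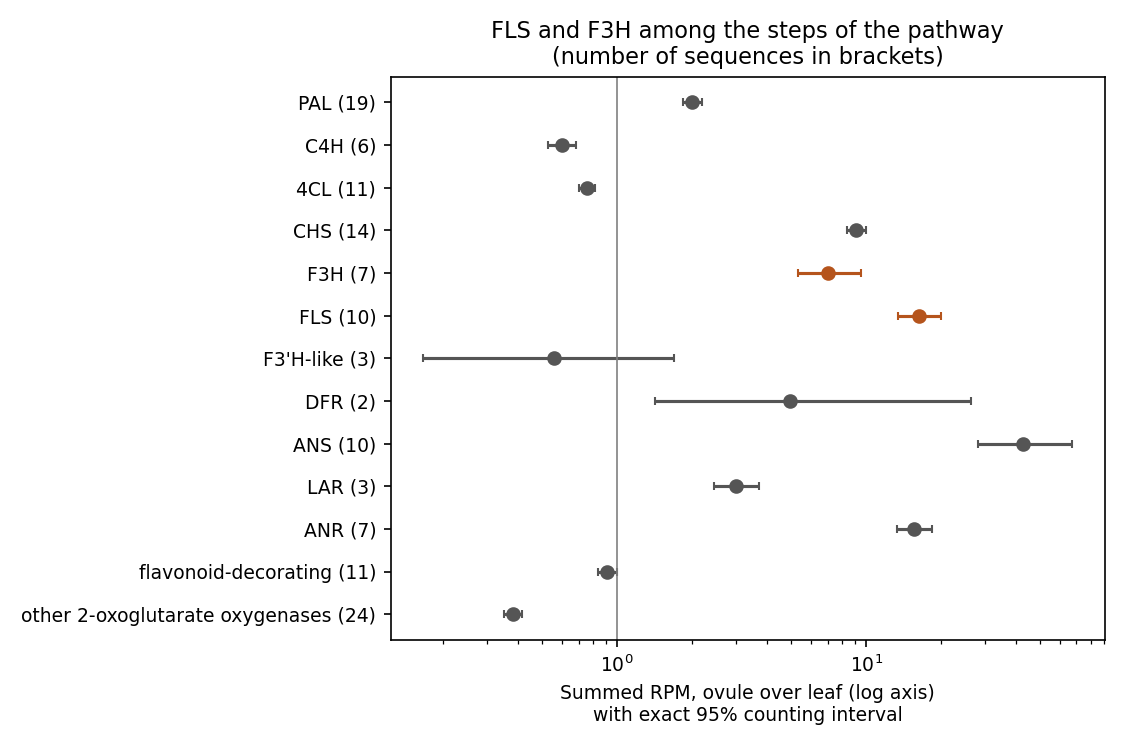
Summed RPM in ovule over leaf on a log axis for FLS and F3H (coloured) and the other lists, with the exact 95% counting interval and the number of sequences in brackets. FLS at 16.4 and F3H at 7.06 lie on the ovule side with CHS, DFR, ANS, LAR and ANR. On the leaf side lie C4H, 4CL and the list labelled other 2-oxoglutarate oxygenases, which includes ACC oxidases.

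Levels per length placed Unigene13025 beside 1 sequence of each pathway list, the one with the highest mean RPKM over both libraries. That sequence need not be the highest of its list in either library, and the values say nothing of the level of a whole step. In ovule the RPKM of 259 of Unigene13025 stood below those of the ANR sequence Unigene15457 (719), the CHS sequence Unigene22735 (616) and the ANS sequence Unigene28747 (292). It stood above those of the LAR sequence Unigene2250 (90.4), the PAL sequence Unigene18659 (82.4), the 4CL sequence Unigene11319 (30.3), the C4H sequence Unigene18715 (16.3) and the DFR sequence JQ936562 (5.15). Among the same sequences the order differed in leaf. There the RPKM of 18.3 of Unigene13025 stood below those of Unigene22735 (119), Unigene11319 (91.4), Unigene18715 (57.1), Unigene18659 (51.3) and Unigene15457 (37.9). It stood above those of Unigene28747 (8.08), Unigene2250 (4.49) and JQ936562 (0.855).

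The pathway sequences most like Unigene13025 were taken by distance of log2(RPKM + 0.5) over the 2 libraries, among 94 sequences of these lists. The nearest was the ANS sequence Unigene28747, with 292 RPKM in ovule and 8.08 RPKM in leaf. A CHS sequence (CL3152.Contig1) followed at 126 RPKM in ovule and 29.9 RPKM in leaf, then ANR Unigene15457 with 719 and 37.9. A 4CL sequence (Unigene9672) with 60.5 and 27.4 and PAL Unigene18659 with 82.4 and 51.3 were next. Likeness over 2 libraries is a description of level and ratio only.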

How the data were processed

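2 RNA sequencing tables were used, 1 of a mature ovule library and 1 of a fully expanded leaf library. For each reference sequence the authors deposited, per the file headers, the count of uniquely mapped reads, the length in bases, the percent of bases covered, and an RPKM value (reads per 1000 bases and per 1000000 uniquely mapped reads), with gene ontology terms and the best BLAST hit in nr. The aligner, the assembler and their versions were not stated in the labels or headers. Summed over each table, the reads equalled the header total, and RPKM equalled reads over length and total to a relative tolerance of 1e-06.

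The tables were joined by identifier, with an absent sequence taken as 0 reads. Members were found by text in the descriptions. The members and lists were chosen with earlier results of these data known. The call needed an RPKM of 1 or more in either library and an absolute log2((RPKM ovule + 0.5)/(RPKM leaf + 0.5)) of 1 or more. Folds are RPM ratios (RPM, reads per 1000000) whose 95% intervals are exact Clopper-Pearson ones on both counts, and read counts carry exact Poisson 95% intervals. With 1 library per tissue, no test between tissues was possible and no p-value was computed. Where 1 library had 0 reads, the fold was bounded with 3 reads in that library. The calling and interval code was tested on simulated data.

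Named members are those with at least 20 reads over both libraries, or at least 10 in 1 library and 0 in the other. For each pathway list the sequence with the highest mean RPKM was named, and the 5 list sequences nearest to the most-read flavonol synthase. The anthocyanidin reductase text pattern also matched leucoanthocyanidin reductase, and those 3 sequences were counted as leucoanthocyanidin reductase alone. Alternatives were TMM scaling (edgeR 4.0.16), median-of-ratios size factors (DESeq2 1.42.0), rescaling to TPM, other pseudocounts and filters, and other member sets. Python 3.11.15, SciPy 1.17.1 and R 4.3.3 were used.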

Additional observations from a re-analysis of the deposited data

How the results depend on the processing

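FLS stayed higher in ovule under every alternative run. Its 16.4-fold excess became 29.1-fold without the most-read sequence, 12.7-fold on assembled sequences alone and 15.6-fold by RPKM summed per description. Without the most-read sequence, GenBank sequences held 426 of the 502 FLS ovule reads and 0 leaf reads. F3H was 16.1-fold higher by RPKM summed per description and 10.5-fold without the naringenin dioxygenase-like sequence, an alternative chosen after seeing the data. On assembled sequences alone the F3H direction turned, to 0.139 for ovule over leaf with 0 ovule reads set at 3. Of the 20 leaf reads there, 18 were on the naringenin dioxygenase-like sequence. The 11 of 13 members higher in ovule became 3 of 5 on assembled sequences alone. Among these 3 was Unigene32580, whose interval included 1. With RPKM summed per description, 3 descriptions were higher in ovule, a count of descriptions and not of sequences. The members higher in ovule numbered 10 with TMM scaling and 10 as TPM. With an RPKM filter of 5 or a filter of 20 reads over both libraries there were 9, and with no filter 12. The 1 member higher in leaf became 0 with an RPKM filter of 5, with a filter of 20 reads over both libraries and without the naringenin dioxygenase-like sequence, and 2 when the flavonoid 3'-monooxygenase-like sequences were added. The members' median log2 ratio of 3.43 became 4.66 with a pseudocount of 0.1, and 1.08 on assembled sequences alone, 2.57 with 0 reads set at 3, 2.62 with a pseudocount of 1 and 2.62 with RPKM summed per description. Without the most-read sequence, C4H turned to 1.51-fold and 4CL to 1.16-fold higher in ovule; the cause was not tested. The median log2 ratio over the whole reference was -0.24 with TMM scaling and -0.25 as TPM, against -0.10 in the values above. Under the scalings and pseudocounts tried, 0 of the 12 named members changed direction. No paired analysis was possible because there is 1 library per tissue, and for the same reason no replicate could be left out. Depth limits every member with few reads, and 5 members had between 1 and 7 reads over both libraries.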

Other observations

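Sequences outside the members also carried gene ontology terms for these activities. Flavonol synthase activity was attached to 9 non-members, none of them described as FLS. Of the 7 past the filter, 2 were called toward ovule and 3 toward leaf. Reads on the 9 sequences were 162 in the ovule library and 115 in the leaf library, 1.31-fold higher in ovule (1.02 to 1.67). The most read in ovule was Unigene19626, of unknown description, with 33.3 RPKM in ovule and 8.36 RPKM in leaf. Another sequence with this term, Unigene44454, was described as an FLS2-like receptor kinase, which is a flagellin sensor whose symbol resembles that of flavonol synthase. Naringenin 3-dioxygenase activity was attached to CL3321.Contig2, described as a predicted protein, which went against the F3H members with 6.11 RPKM in ovule and 45.9 RPKM in leaf, from 28 and 195 reads. These sequences were singled out after their values were seen.

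The term flavonol biosynthetic process held 15 sequences that are not members. Of 13 past the filter, 5 were called toward ovule and 6 toward leaf, and their median log2 ratio was -0.94 (-2.81 to 2.04). By summed reads, 3463 in the ovule library and 1043 in the leaf library, they were 3.08-fold higher in ovule (2.87 to 3.30). The term flavonoid biosynthetic process held 54 sequences and none of the 17 members. Of 42 past the filter, 12 were called toward ovule and 11 toward leaf. Their median log2 ratio was -0.31 (-0.64 to 0.50). The general 2-oxoglutarate oxygenase term held 59 sequences that are not members. Of 55 past the filter, 18 were called toward ovule and 20 toward leaf. By summed reads they were 2.02-fold higher in leaf (1.95 to 2.10).

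Flavonoid 3'-monooxygenase, also known as flavonoid 3'-hydroxylase, adds a hydroxyl group to the B ring. The 3 sequences described as like it had 6 ovule and 10 leaf reads, and the interval of the ovule over leaf ratio of 0.556 included 1 (0.166 to 1.69).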
